A study of Homo sapiens with 6 samples.

Results

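The miRNAs described here are the 3p products of the paralogous miR-23, miR-27 and miR-24 clusters. They were chosen by probe name, as the mature 3p probes of miR-23a, miR-23b, miR-24, miR-27a and miR-27b, which are 5 of the 2019 human probes on the array. Their levels were measured in HuH7, an established hepatocellular carcinoma line, after 24 h with cisplatin at 1 µg/ml (3 samples) or without the drug (3 samples). Each sample went to a 1-colour array, and every probe was printed as 1 spot. Samples are numbered 1 to 3 within a group, without word on whether they were separate cultures, so the p-values rest on a spread between samples that may be technical. With 3 arrays a group, the number of arrays limits the precision.

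A miRNA is cut from a hairpin in a longer transcript and guides a silencing complex to messenger RNAs, mainly through its seed, bases 2 to 8. Humans carry the trio in 2 copies. The one on chromosome 19 encodes miR-23a, miR-27a and miR-24-2, and the one on chromosome 9 encodes miR-23b, miR-27b and miR-24-1. Among well-studied targets, miR-23 represses glutaminase, miR-27 represses regulators of fat metabolism such as PPARG, and miR-24 represses cell cycle genes and the histone variant H2AX, which marks DNA breaks. Cisplatin crosslinks DNA.

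The mature sequences, from RefSeq (GRCh38.p14), are shown because the members differ so little from their paralogues. Capitals mark the seed.
hsa-miR-23a-3p: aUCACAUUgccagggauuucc
hsa-miR-23b-3p: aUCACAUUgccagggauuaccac
hsa-miR-27a-3p: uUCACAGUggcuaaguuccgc
hsa-miR-27b-3p: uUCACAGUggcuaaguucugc
hsa-miR-24-3p: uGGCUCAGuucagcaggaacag

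The 5 miRNAs thus hold 3 seeds, UCACAUU for miR-23, UCACAGU for miR-27 and GGCUCAG for miR-24. Counted from the 5′ end of the first-named miRNA, miR-23a-3p and miR-23b-3p differ by U19A, and miR-23b-3p carries the further bases AC at its 3′ end. miR-27a-3p and miR-27b-3p differ by C19U. Both differences lie outside the seed. The probe sequences are not used here, and how far 1 probe also captured the paralogue was not tested. miR-24-3p has the same sequence at both loci, so its 1 probe reads the sum of the clusters.

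In the genome the chromosome 19 hairpins lie within 373 bases on the minus strand (chr19:13836287-13836659), inside the span of the non-coding host gene MIR23AHG. The chromosome 9 hairpins lie within 881 bases on the plus strand (chr9:95085208-95086088), inside the span of the protein-coding gene AOPEP. The gene table used gives no exons, so whether a hairpin is exonic or intronic is not stated. The 6 hairpins follow, with the measured 3p product in capitals, to show where it lies in each.
MIR23A: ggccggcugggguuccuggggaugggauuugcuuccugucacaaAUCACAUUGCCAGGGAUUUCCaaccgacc
MIR27A: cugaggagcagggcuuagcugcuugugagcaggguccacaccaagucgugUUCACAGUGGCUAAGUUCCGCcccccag
MIR24-2: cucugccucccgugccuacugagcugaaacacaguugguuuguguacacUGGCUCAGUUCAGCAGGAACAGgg
MIR23B: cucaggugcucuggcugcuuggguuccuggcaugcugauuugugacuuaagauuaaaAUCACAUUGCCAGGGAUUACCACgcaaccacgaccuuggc
MIR27B: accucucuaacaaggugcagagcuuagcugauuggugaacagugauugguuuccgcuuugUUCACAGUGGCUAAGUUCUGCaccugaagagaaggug
MIR24-1: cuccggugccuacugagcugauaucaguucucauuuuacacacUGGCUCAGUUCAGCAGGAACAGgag

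On the opposite, 5p arm the paralogues have drifted further. miR-23a-5p and miR-23b-5p differ at 7 of 22 positions, miR-27a-5p and miR-27b-5p at 8 of 22, and miR-24-1-5p and miR-24-2-5p at 6 of 22.

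A probe was taken as detected where its foreground, the median pixel intensity of its spot, lay more than 2 SD above the mean of that array's 925 blank spots. Between 329 and 738 human probes were detected per array, with the fewest on cisplatin replicate 2. A hepatocyte marker list had 6 of 6 probes detected on all 6 arrays, among them miR-122-5p, the dominant miRNA of liver, at a raw foreground of 4337 to 5169. Blood and muscle lists had 0 of 7 and 0 of 4 probes detected on every array, the endothelial list 1 of 2 (miR-126-3p) and the stromal list 2 of 5 (miR-143-3p and miR-145-5p). For each of these 5 lists the summed foreground of the control arrays overlapped that of the cisplatin arrays. On the normalized log2 scale both arms of miR-122 lay lower on every cisplatin array than on any control array. The differences were -0.21 for miR-122-5p and -0.37 for miR-122-3p, and neither passed (limma adjusted p = 0.129 for both). The raw values of both arms overlapped between the groups. The rest of the hepatocyte list overlapped on the log2 scale. Differences there were -0.058 for miR-192-5p, 0.021 for miR-194-5p, -0.19 for miR-148a-3p and -0.095 for miR-885-5p. The share of all tested probes lower without overlap is not given here.

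All 5 members were detected on all 6 arrays, and they are among the 243 of 2019 human probes for which this held. On the raw scale every cisplatin array lay above every control array for each of the 5 members. Of the 324 tested probes, 9.57% had that raw order. The normalized difference was largest for miR-27a-3p, 1.51-fold, and smallest for miR-27b-3p, 1.20-fold. None of the 5 passed the test across all probes in the main analysis. Locus by locus, the values were as follows.

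For miR-23a-3p (MIMAT0000078), the first hairpin of the chromosome 19 cluster, raw foreground was 1113, 1471 and 1535 on control arrays 1, 2 and 3 and 1876, 2550 and 2369 on cisplatin arrays 1, 2 and 3. The lowest cisplatin array exceeded the highest control array. Means were 1373 ± 227 and 2265 ± 349 (SD, n = 3 each), and after background correction and quantile normalization the log2 levels were 10.35 ± 0.25 and 10.89 ± 0.052. The fitted difference was 0.55 on the log2 scale (SE 0.13, 95% interval 0.22 to 0.87, limma adjusted p = 0.129).

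miR-27a-3p (MIMAT0000084) comes from the middle hairpin of the same cluster. Its foreground was 367, 550 and 468 on the control arrays and 573, 739 and 724 on the cisplatin arrays. Here the groups were separated by the narrow gap between control 2 and cisplatin 1, and control 1 was the lowest array. The raw means were 462 ± 91.7 and 679 ± 91.8, the log2 levels 8.44 ± 0.27 and 9.04 ± 0.041 (SD, n = 3 each), and the difference was 0.60 (SE 0.14, interval 0.25 to 0.95, limma adjusted p = 0.129). This was the highest of all 324 tested probes, that is, of all probes detected on the 3 arrays of at least 1 group.

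On chromosome 9, miR-23b-3p (MIMAT0000418) read 1620, 1991 and 2031 on the control arrays and 2924, 3211 and 3290 on the cisplatin arrays. These groups were far apart compared with their spread, 1881 ± 227 against 3142 ± 193 (SD, n = 3 each). On the log2 scale the levels were 10.90 ± 0.062 and 11.41 ± 0.19, and the difference was 0.51 (SE 0.11, interval 0.24 to 0.78, limma adjusted p = 0.129).

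Its cluster neighbour miR-27b-3p (MIMAT0000419) read 461, 558 and 564 on the control arrays and 584, 788 and 697 on the cisplatin arrays. Control 3 and cisplatin 1 lay so close that the groups nearly touched. The means were 528 ± 57.8 and 689.7 ± 102.2 (SD, n = 3 each), and the log2 levels were 8.77 ± 0.057 and 9.03 ± 0.064. The difference of 0.26 was the smallest of the members, with the smallest error (SE 0.059, interval 0.11 to 0.41, limma adjusted p = 0.129).

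miR-24-3p (MIMAT0000080), made from both clusters, read 652, 869 and 901 on the control arrays and 1043, 1242 and 1140 on the cisplatin arrays. Again control 1 was the lowest array and no cisplatin array fell into the control range. Raw means were 807 ± 135 and 1142 ± 99.5 and log2 levels 9.52 ± 0.19 and 9.91 ± 0.086 (SD, n = 3 each). The difference was 0.39 (SE 0.11, interval 0.12 to 0.66, limma adjusted p = 0.167).

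**Figure D1:**
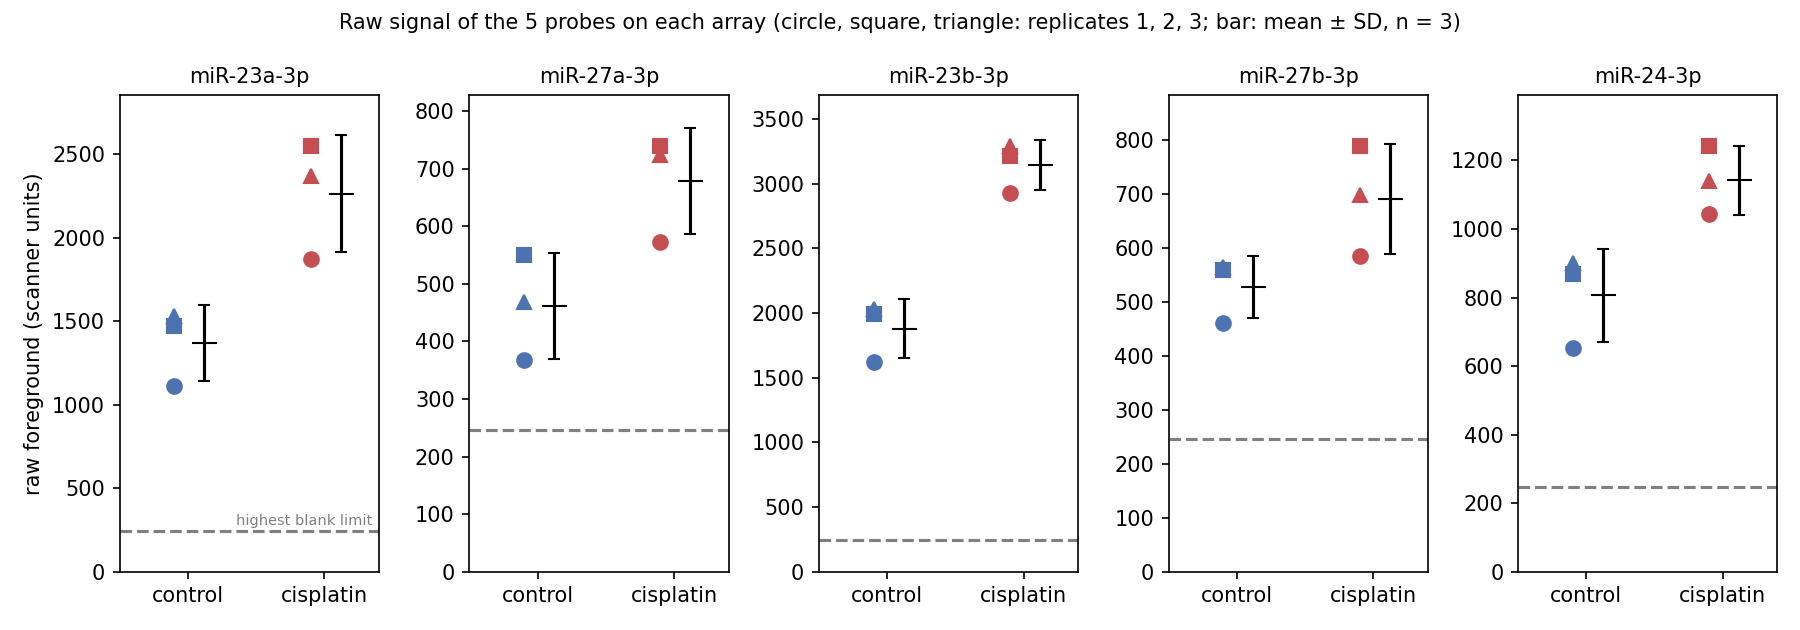
Raw foreground in scanner units of the 5 probes on each control (blue) and cisplatin (red) array, 1 panel per probe, with the mean and SD of each group (n = 3) and a dashed line at the highest blank-spot limit of the 6 arrays. In every panel the lowest cisplatin array lies above the highest control array, with the narrowest gaps for miR-27a-3p and miR-27b-3p.

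Control 1 carried part of the difference for miR-23a-3p, miR-27a-3p and miR-24-3p. Without it the log2 differences were 0.41 for miR-23a-3p, 0.46 for miR-27a-3p and 0.24 for miR-24-3p, the last less than its full value by over 1.5 times. miR-23b-3p kept 0.50 and miR-27b-3p 0.25. No member passed in that fit. The limma adjusted p was 0.0839 for miR-23a-3p, 0.0935 for miR-27a-3p, 0.252 for miR-24-3p, 0.146 for miR-23b-3p and 0.180 for miR-27b-3p. In the same-numbered pair 1 (cisplatin 1 less control 1) the differences ran from 0.29 for miR-27b-3p to 0.87 for miR-23a-3p. Pair 2 gave 0.32 to 0.47 and pair 3 gave 0.13 (miR-27b-3p) to 0.56 (miR-27a-3p). All 15 differences were positive. Being higher in all 3 pairs was common, with 62 of the 324 tested probes doing so on the log2 scale (19.1%) and 26.2% on the raw scale.

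Quantile normalization keeps only the rank of a probe on its array, so the ranks of the raw foreground, before background correction, among the 2019 human probes are given here (1 is the brightest). miR-23b-3p held ranks 22, 22 and 20 on control arrays 1, 2 and 3 and ranks 10, 16 and 13 on cisplatin arrays 1, 2 and 3. The change in rank was widest for miR-27a-3p, which went from 108, 84 and 94 to 64, 60 and 59. For miR-27b-3p the ranks were 79, 81 and 74 against 62, 58 and 66, and for miR-23a-3p 34, 30 and 29 against 21, 22 and 24. miR-24-3p stood at 50, 41 and 42 in control and at 37, 37 and 39 in cisplatin arrays, a difference of a few places without overlap. Ranks are compared for the same probe across arrays only, since probes of different miRNAs bind with different strength and their brightness gives no order of abundance.

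**Figure D2:**
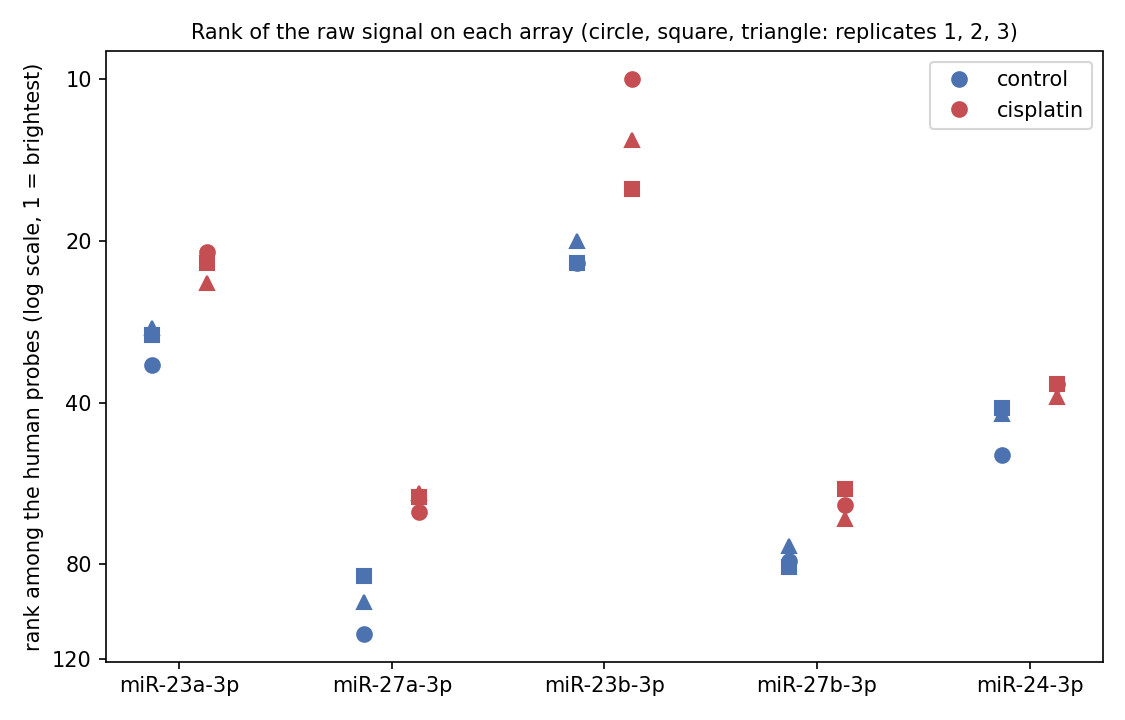
Rank of each probe's raw foreground among the 2019 human probes of an array (vertical axis, log scale, brightest at the top) on control (blue) and cisplatin (red) arrays. Every probe stands higher in rank on all 3 cisplatin arrays than on any control array, from ranks 84 to 108 to ranks 59 to 64 for miR-27a-3p.

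Read against all probes, 0 of the 5 members passed the limma test at an adjusted p of 0.05, where 0.309% of the 324 tested probes did (1 probe, not a member). At an unadjusted p under 0.05 and higher after cisplatin stood 5 of 5 members, against 8.02% of all tested probes (15.7% in either direction). Groups that did not overlap, with every cisplatin array higher, were found for 5 of 5 members on the log2 scale, against 8.64%, and for 5 of 5 on the raw scale, against 9.57%. A positive difference, held by 5 of 5 members, was held by 46.3% of the tested probes. The median log2 difference was 0.51 over the members and -0.012 over all tested probes. A further 68 tested probes had control levels within the members' range, and their median was -0.042, with 30 of 68 positive and 5 of 68 higher without overlap. By size of the difference the members took places 1 (miR-27a-3p), 3 (miR-23a-3p), 4 (miR-23b-3p), 10 (miR-24-3p) and 26 (miR-27b-3p) of 324. The members were chosen with earlier results of these data known, so these shares and places describe them and are not a test.

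**Figure D3:**
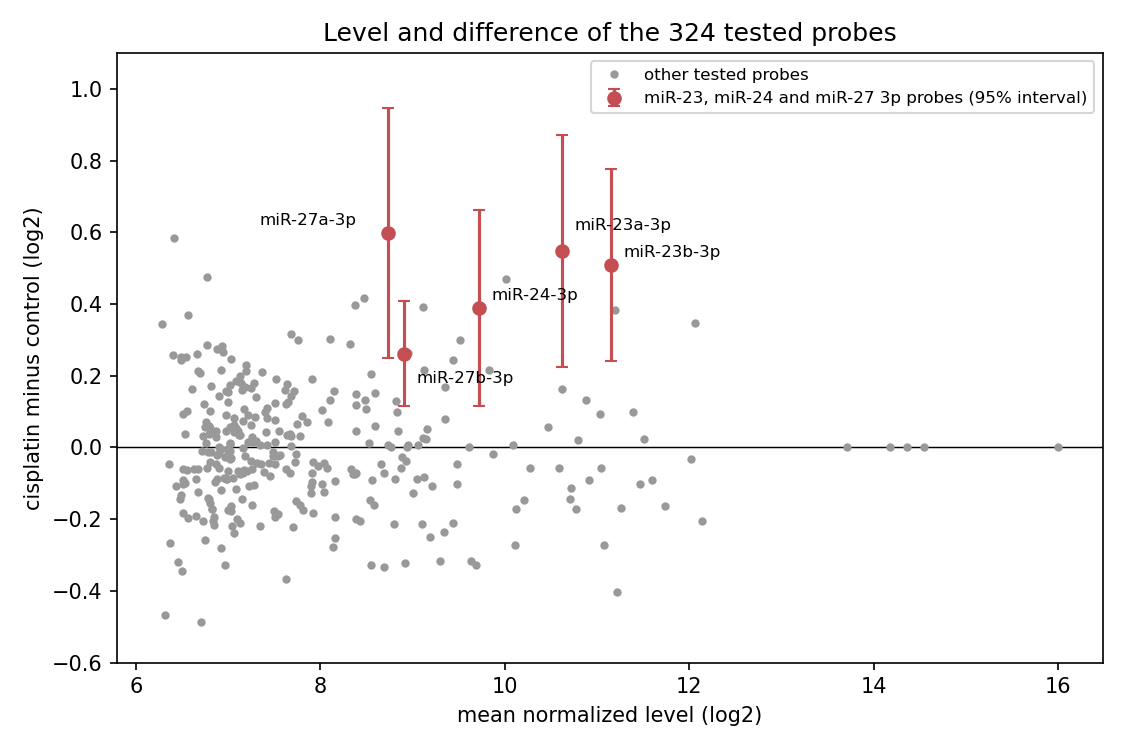
Mean normalized log2 level (horizontal axis) against the log2 difference, cisplatin minus control (vertical axis), of the 324 tested probes, with the 5 members in red and their 95% limma intervals. All 5 intervals lie above 0, and miR-27a-3p at 0.60 is the highest point of the plot.

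Whether a member passed depended on how the arrays were put on a common scale. With cyclic loess, miR-23a-3p and miR-23b-3p rose (log2 difference 0.54 and 0.55, limma adjusted p = 0.0273 for both), where 1.23% of all tested probes were called higher. They also rose when arrays were scaled to their 75th percentile (0.80 and 0.81, limma adjusted p = 0.0414 and 0.0203), where 0.926% were called higher. With median scaling miR-23b-3p alone of the members rose (0.81, limma adjusted p = 0.0375), where 0.617% were called higher. In these 3 settings miR-27a-3p stood at 0.55, 0.76 and 0.75, miR-24-3p at 0.35, 0.61 and 0.61, and miR-27b-3p at 0.29, 0.51 and 0.51, and none of these passed. Other scales let no member pass. The members' limma adjusted p ran from 0.101 to 0.301 without normalization and from 0.633 to 0.763 with scaling to the spike spots. With the authors' deposited values it ran from 0.383 to 0.525. Slide position is the number headed Cell in the scanner output, read here as the place of the array on its slide. With slide position as a random block all 5 members passed (limma adjusted p from 0.0196 to 0.0229), where 7.72% were called higher. However, the estimated correlation of -0.62 between arrays at 1 position shrinks the errors in that fit.

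Part of that shift was shared with other probes. The 68 probes of like brightness had a median of 0.19 with the 75th percentile and of 0.18 with median scaling, so that the members' median exceeded theirs by 0.57 under both, beside 0.55 under quantile normalization. Over all settings tried this excess lay between 0.44, without control replicate 1, and 0.63, with the authors' deposited values.

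The processed values in the authors' deposited table, linear and scaled to 1 median per array, put every cisplatin array above every control array for 4 of 5 members. Of the 282 tested probes listed there on all 6 arrays, 12.1% had that order. In it miR-23b-3p was listed at 1429, 1654 and 1990 in control and 2566, 2995 and 3152 in cisplatin arrays. miR-27b-3p was the exception, where control 3 at 389.8 in the authors' deposited table lay above cisplatin 1 at 375.

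The question whether the clusters responded alike was put to the differences between probes on the same array. miR-23a-3p minus miR-23b-3p averaged -0.56 ± 0.25 (SD, n = 3) without the drug and -0.52 ± 0.19 (SD, n = 3) with it, a change of 0.039 (exact two-sided permutation p = 0.9). The sign of this small change turned under some settings, and the miR-23 paralogues were not separated. For the miR-27 pair the control arrays gave -0.60, -0.050 and -0.35 and the cisplatin arrays -0.053, -0.025 and 0.084. Control 2 lay between the cisplatin arrays, so the groups overlapped. The change was 0.34, higher in 3 of 3 same-numbered pairs, with a larger mean difference for miR-27a-3p than for miR-27b-3p (exact two-sided permutation p = 0.2). Without control replicate 1 it was 0.20, less by over 1.5 times, and leaving out other single arrays gave values up to 0.48 (without control replicate 2).

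Averaging miR-23a-3p with miR-27a-3p and miR-23b-3p with miR-27b-3p, the chromosome 19 products exceeded those of chromosome 9 by 0.19 more after cisplatin than before (exact two-sided permutation p = 0.3). This value rested largely on control 1 and was 0.055 without it, 0.12 without cisplatin replicate 2 and 0.31 without control replicate 2. It was 0.11 when arrays were scaled to their median, their 75th percentile or the spike spots, or not normalized, and 0.12 with cyclic loess. Control 1 stood lowest at -0.72, beside -0.22 and -0.39 for control 2 and 3 and -0.36, -0.16 and -0.25 for the cisplatin arrays. All 3 comparisons had an adjusted p of 0.45 or more (0.9, 0.45 and 0.45), in a design where 3 against 3 arrays cannot give a p below 0.1. A difference between the loci was thus not detectable here, and the data do not show that they responded alike.

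**Figure D4:**
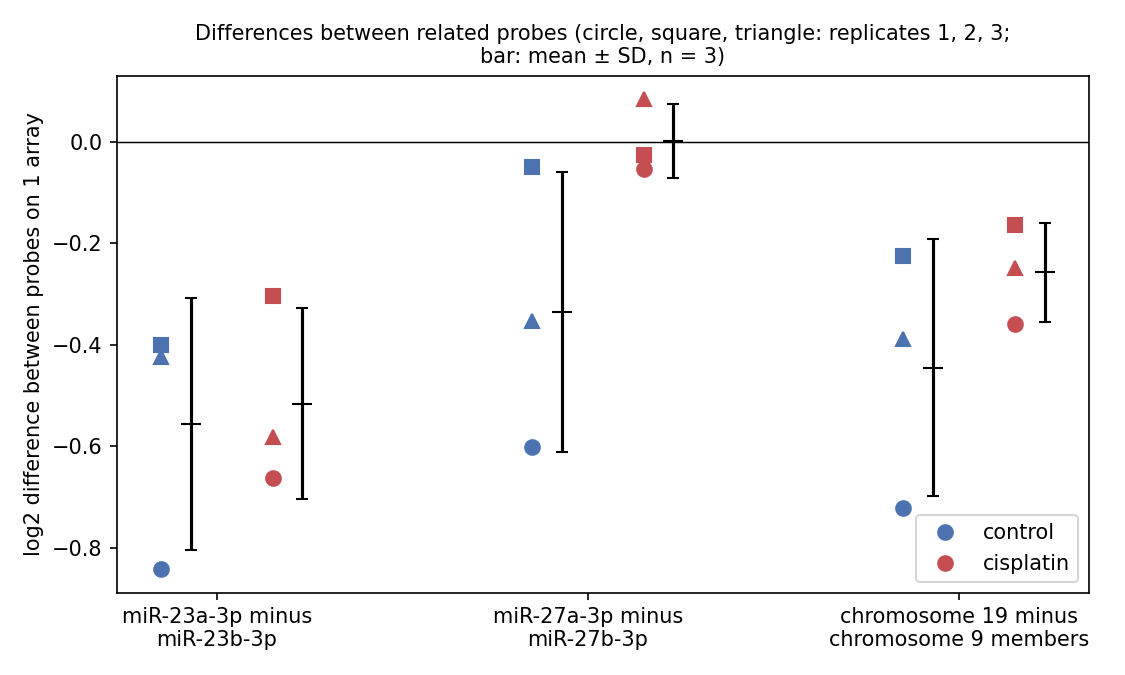
Log2 difference between related probes on the same array (vertical axis), for control (blue) and cisplatin (red) arrays, with mean and SD (n = 3). The height reflects how brightly each probe reads, so only shifts between colours count, and the groups overlap in all 3 comparisons, most nearly apart for miR-27a-3p minus miR-27b-3p with means of -0.33 and 0.0019.

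The 5p strands of the same hairpins, usually degraded once the 3p strand is loaded, were close to the blanks. Of the 6 probes, 0 were detected on all 3 arrays of a group, so they were not tested. miR-27a-5p and miR-23b-5p were above the limit on 0 of 6 arrays, miR-23a-5p and miR-24-2-5p on 1, miR-27b-5p on 2 and miR-24-1-5p on 4. The highest foreground of any was 253, for miR-27b-5p, and their groups overlapped for all 6. Neither cluster's 5p products can therefore be compared between the groups at this signal.

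miR-23c, from a locus on chromosome X, shares bases 2 to 8 with miR-23 (aUCACAUUgccagugauuaccc) and differs from miR-23a-3p by G14U and U19A. It was detected on all arrays but dim, at 225, 245 and 246 in control and 241, 292 and 238 in cisplatin arrays. The groups overlapped, and the log2 difference was 0.21 (SE 0.21, interval -0.31 to 0.73, limma adjusted p = 0.755).

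miR-128, a miRNA best known from brain, holds the miR-27 seed 1 base further 5′ (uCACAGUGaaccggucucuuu, with its own bases 2 to 8 in capitals). Its foreground was 329, 442 and 402 in control and 360, 408 and 392 in cisplatin arrays. These overlapped fully, with a log2 difference of -0.058 (SE 0.12, interval -0.36 to 0.24, limma adjusted p = 0.876). Looser matches share only bases 2 to 7. miR-513a-5p, with the start of the miR-27 seed, was above the limit on 2 of 6 arrays. miR-4284, with the start of the miR-24 seed, kept its rank on every array, so quantile normalization gives it no difference.

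Neighbours in the genome were close to the blanks. A stretch of 38039 bases separates MIR23A from MIR181C. Its products miR-181c-5p and miR-181c-3p were above the limit on 2 and 1 of 6 arrays, and miR-181d on 4. miR-3074-5p and miR-3074-3p, from a hairpin that overlaps MIR24-1, were above it on 1 array each. None of these 5 probes was detected on all 3 arrays of a group, so none was tested.

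Among the other tested probes, those most like the mean of the 5 members across the 6 arrays were miR-425-5p (Pearson r = 0.98), miR-30b-5p (0.98), miR-1247-3p (0.95), miR-221-3p (0.94) and miR-424-5p (0.94). These correlations are a description of 314 probes ranked on 6 arrays that share labelling and fall into control and cisplatin groups. The members' mean was itself higher on every cisplatin array (10.02 to 10.10) than on any control array (9.44 to 9.68). Probes picked for likeness to it will mostly share that order, so the order is no separate finding. All 5 had it, beside 8.64% of the tested probes. All 5 were also higher in 3 of 3 pairs, beside 19.1%. The log2 differences were 0.39 for miR-425-5p, 0.24 for miR-30b-5p, 0.22 for miR-1247-3p, 0.22 for miR-221-3p and 0.42 for miR-424-5p. None passed (limma adjusted p from 0.0919 for miR-425-5p to 0.207 for miR-1247-3p).

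On the slide, the 5 member spots lay in 5 different print blocks (6, 8, 16, 18 and 32). Within their blocks all 5 lay in print row 1, in columns 7 to 9, and an effect of that place was not tested. The other tested probes of those blocks, 10 to 14 a block, had median log2 differences between -0.020 and 0.031, except in the block of miR-23b-3p, where the median was 0.14. In the block of miR-27b-3p the highest of them was 0.59, above that member. Elsewhere the highest lay between 0.16 and 0.34, below the member of the block. Local background at the member spots ran from 127 to 174, and at each of them it was lower on the cisplatin array than on the control array of the same number. This held for whole arrays too. The median local background of the human probes was 154, 185 and 168 on control arrays 1, 2 and 3. On cisplatin arrays 1, 2 and 3 it was 141, 176 and 154. Arrays of both groups never shared a slide position (the Cell number of the scanner output), and the effects of position and treatment cannot be told apart. Between the arrays at positions 1 and 2 (replicate 2 of each group) the log2 differences were 0.47 for miR-23a-3p, 0.38 for miR-23b-3p, 0.32 for miR-24-3p, 0.39 for miR-27a-3p and 0.36 for miR-27b-3p. At positions 3 and 4 (replicates 1 and 3) the fit gave 0.58, 0.57, 0.42, 0.70 and 0.21 in that order, with limma adjusted p of at least 0.408.

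**Figure D5:**
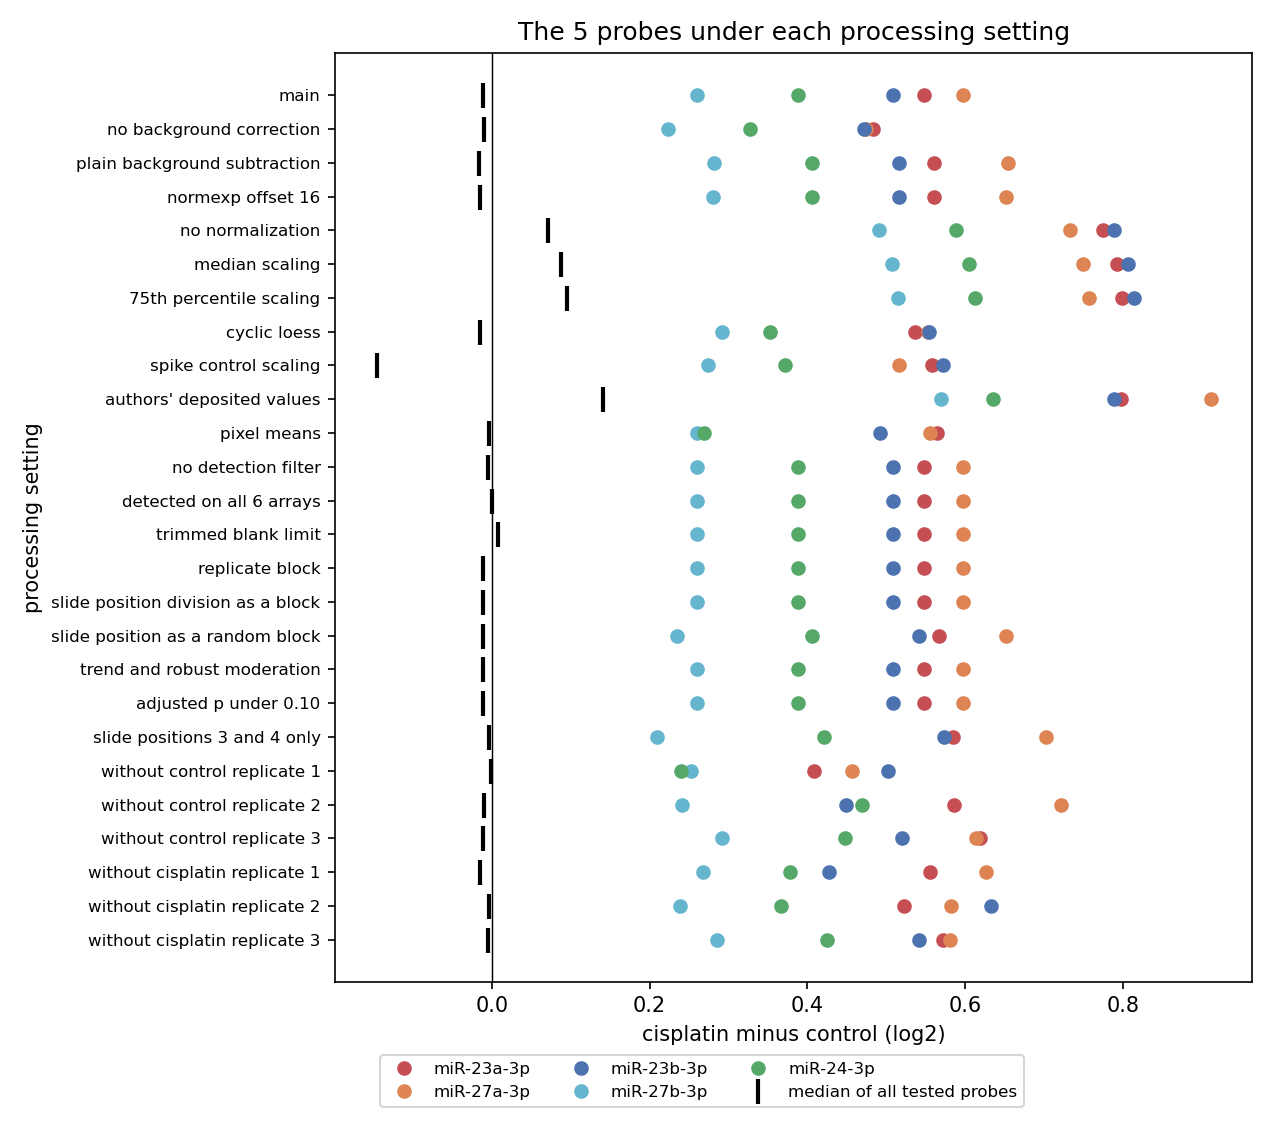
Log2 difference, cisplatin minus control (horizontal axis), of each of the 5 members (coloured points) and the median of all tested probes (black tick) under the main processing and 25 alternatives (vertical axis). All points lie to the right of 0, between 0.21 and 0.91, while the median of all tested probes ranges from -0.15 to 0.14.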

How the data were processed

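Per the file headers, the scanner files hold linear intensity values, namely pixel medians and means for every spot and the area around it. RNA was labelled with Hy5, per the labels. No source used here names the scanner or its software. The authors also deposited processed values, again linear intensity, whose median is 31 on each array. A comparison with the scanner values showed that they are foreground medians minus a trimmed blank-spot mean (5% off either end), over a single factor per array, with dim probes unlisted. It was used as an alternative.

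Foreground and background medians were corrected with normexp (offset 50), log2-transformed and then quantile-normalized over 2019 human probes, with limma 3.58.1 (R 4.3.3). The 324 tested probes were fitted with lmFit and eBayes and adjusted by Benjamini-Hochberg at 0.05. The offset makes the folds of dim probes smaller. Differences between members were tested by exact two-sided permutation over arrays. Same-numbered samples deviated together (correlations 0.44, 0.24 and 0.20 for numbers 1, 2 and 3), so the numbers were taken to pair them. The pairing entered the differences by pair and an alternative fit with a replicate block. Neither the main fit nor the permutation tests used it. The correlations and the labels' numbers are the only source of the pairing, and control 3 with cisplatin 2 reached 0.23. Named probes are the members, the other products of their hairpins and neighbours, probes sharing a seed, and the 5 most alike in pattern.

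Of the probe names, 1688 of 2019 occur as written in the RefSeq table, all 5 members among them. Probes were matched to RefSeq by name (miR-128 to miR-128-3p). The fit was also run on simulated data, and the outcome is not reported here. Members and lists were chosen with earlier results of these data known. Figures were drawn with matplotlib 3.10.9.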

Additional observations from a re-analysis of the deposited data

How the results depend on the processing

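The 5 members were positive under all 25 alternatives, though the detection filters, the fixed blocks, the moderation and the threshold could not move their values. Their median moved from 0.51 to 0.73 without normalization, 0.75 with median scaling, 0.76 with the 75th percentile and 0.79 with the authors' values, while the median of all tested probes shifted to 0.14 with the authors' values and to -0.15 with scaling to spike spots. Leaving out 1 array gave 0.41 to 0.54. Members called were 0, but 1 with median scaling, 2 with the 75th percentile, 2 with cyclic loess and 5 with slide position as a random block. There 47 probes were called, with an estimated correlation of -0.62 that shrinks the errors, so this count is not relied on.

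Probes called were 1, but 3 without background correction, 2 with median scaling, 3 with the 75th percentile, 4 with cyclic loess and 5 at an adjusted p under 0.10. The limma count was 0 (with the number at an unadjusted p under 0.05) without normalization (33), with spike spots (19), the authors' values (26), pixel means (39), no detection filter (97), detection on all 6 arrays (39), trend and robust moderation (38) and positions 3 and 4 only (38). With the replicate block, which pairs the samples, it was 0 as well (57), and 0 members passed, as in the fit without it. Leaving out 1 array gave 0 to 3.

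The miR-23a-3p minus miR-23b-3p change of 0.039 turned to -0.014 without normalization and with median, 75th percentile and spike scaling, and to -0.018 with cyclic loess, and ran from -0.11 to 0.14 when 1 array was left out. It was negative without control replicate 1 (-0.094) and without cisplatin replicate 2 (-0.11). The causes were not tested. The 5p probes lie too near the blanks for a comparison.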
